A study of Mus musculus with 10 samples.

Results

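The genes described here are the mouse semaphorins, plexins and neuropilins. They were taken from the deposited table by name, as the protein-coding genes of the Sema3 to Sema7, Plxna to Plxnd and Nrp families. This gave 31 of the 23080 genes listed, namely 20 semaphorins, 9 plexins and 2 neuropilins, and all 31 had enough counts to be tested among 16267 genes. The tissue was the anterior fontanelle, the soft gap between the skull bones at the front of the vault, here from mouse embryos at E18.5. The samples held bone as well as fibrous tissue. Bulk RNA-seq was made from 5 libraries labelled WT and 5 labelled Wnt1-Cre; Fgfr2fl/fl, called KO-labelled below. The Wnt1-Cre transgene is active in the neural crest, so *Fgfr2*, which encodes a fibroblast growth factor receptor, can be lost in neural crest descendants but not in the other cells of the tissue, and both groups hold cells of other origin. The labels call the controls WT and the study describes them as littermates, without saying which libraries share a litter.

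Semaphorins are secreted or membrane-bound guidance proteins, first known for steering growing axons. Class 3 semaphorins are secreted and mostly bind neuropilins, which pair with A-type plexins as the signalling subunit, while Sema3e binds Plxnd1 directly and membrane-bound classes bind plexins without neuropilins. In bone, Sema3a made by osteoblast-lineage cells acts through Nrp1 on bone formation and resorption, and Sema4d made by osteoclasts acts on osteoblasts through Plxnb1.

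Depth ranged from 20774667 to 28515434 estimated counts per library, of which ribosomal RNA genes took 18.7% to 33.6%. The members together took 0.21% to 0.244% of the counts, and the fewest counts of any member in any library were 13, for *Plxnb3*. Total *Fgfr2* transcript went against the label. CPM here means counts scaled to a common library size. *Fgfr2* stood at 200 ± 21.7 CPM (SD, n = 5) in WT-labelled libraries and 318 ± 32.8 CPM (SD, n = 5) in KO-labelled libraries, with a log2 fold change of 0.67 ± 0.09 (SE, adjusted p = 0.0487, edgeR's quasi-likelihood test). The adjusted p rose above 0.05 without any 1 of WT-labelled replicates 1, 3, 4 and 5 or KO-labelled replicates 1, 3, 4 and 5, to 0.26 at most, while the fold change stayed between 0.63 and 0.75. A count over the whole gene cannot show whether the floxed exons were lost, so the groups are named by their labels throughout, and each direction below is that of the KO-labelled against the WT-labelled libraries. KO-labelled replicate 2 stood apart, with 17 neuron marker genes summing to 781 CPM against 86.4 to 219 CPM in the WT-labelled libraries and 93.7 to 297 CPM in the other KO-labelled libraries. The differences are therefore also given without it where the text turns on them or where they move.

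All 31 genes had counts in every library, over a wide range of levels. Levels are compared between genes as CPM per kilobase of exon. *Nrp2* was the highest of the 31 in WT-labelled libraries, at 43.6 ± 1.59 (SD, n = 5), followed by *Plxnd1* at 40.5 ± 2.6 and *Plxnb2* at 39.2 ± 1.26 on the same scale. These 3 receptors were the only members above 30, and neighbours in this order had overlapping SDs. *Plxna1* came next at 15.4 ± 1.07, and *Nrp1* stood at 6.7 ± 0.413. The highest ligands were *Sema7a* at 12 ± 2.73 and *Sema4d* at 10.7 ± 0.844, which overlapped in their spread. Among secreted ligands the order was *Sema3c* at 9.18 ± 1.19, *Sema3b* at 8.45 ± 0.841, *Sema3d* at 7.91 ± 1.58, *Sema3f* at 5.93 ± 0.473 and *Sema3a* at 3.9 ± 0.436. The first 3 of these overlapped in their spread. At the bottom, 5 members lay under 1 CPM per kilobase, with *Sema4a* at 0.735, *Sema5b* at 0.642, *Sema4f* at 0.263, *Sema3e* at 0.197 and *Plxnb3* at 0.17. Within the WT-labelled group the coefficient of variation ran from 3.23% for *Plxnb2* to 39.5% for *Plxnb3*, with a median of 11.1% over the members beside 10.8% over all genes tested.

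**Figure D1:**
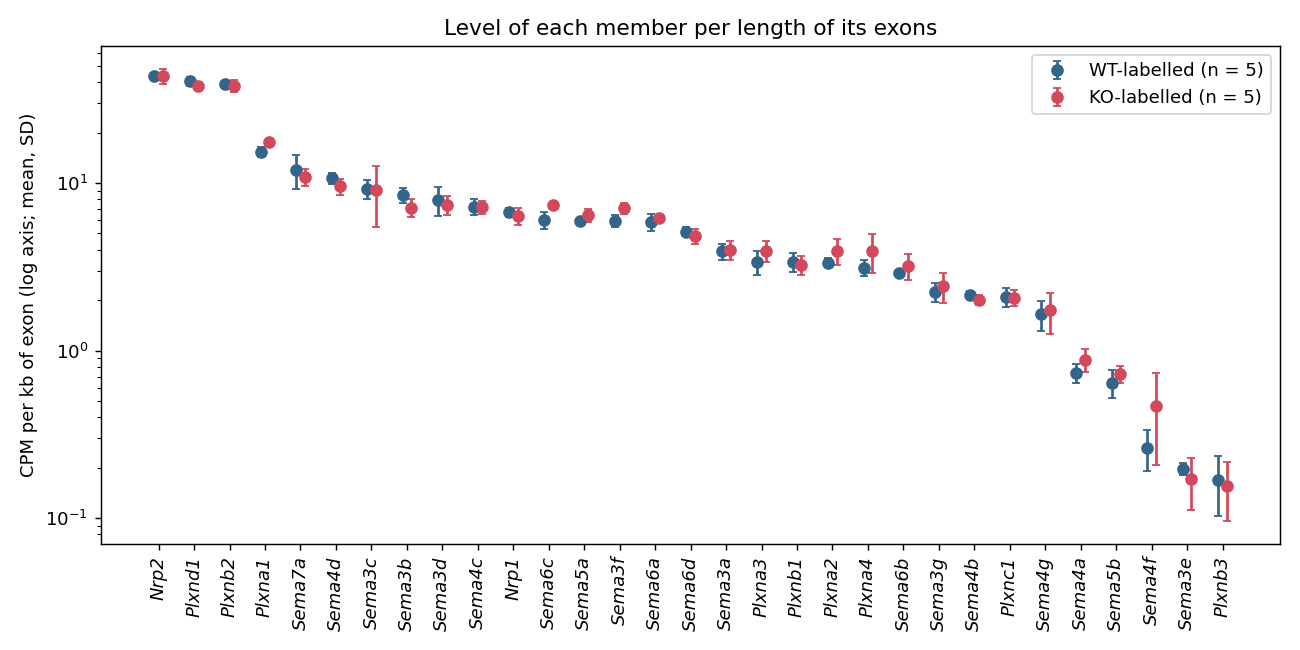
Level of each member as CPM per kilobase of exon on a log axis, ordered by the WT-labelled mean. Points are group means and bars the SD of 5 libraries. *Nrp2*, *Plxnd1* and *Plxnb2* lie above 30 in WT-labelled libraries, and the 2 groups lie close together for most members.

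The main comparison asked whether ligands or receptors of this system differed between the KO-labelled and the WT-labelled libraries. No member had an adjusted p under 0.05 by edgeR's quasi-likelihood test with Benjamini-Hochberg adjustment over all genes, where 0.0184% of genes did. By DESeq2's Wald test 1 member did, *Sema6c* (adjusted p = 0.0427), where 0.615% of genes did. At an unadjusted p under 0.05 by edgeR, 6 members were higher and 1 was lower. The 6 are 19.4% of the members, beside 3.68% of all genes tested, and the 1 is 3.23%, beside 3.82% of all genes. With library size alone as the scaling, 2 members were higher, beside 1.59% of all genes, and 2 lower, beside 4.36%. Leaving out each library in turn, *Sema6c*, *Sema3f* and *Plxna1* kept an unadjusted p under 0.05 in all 10 fits, *Sema3b* in 8, *Plxna4* in 5, *Sema4f* in 4 and *Plxna2* in 3. In either direction 7.49% of all genes passed this threshold. The members were picked with earlier results of these data known, so these shares describe the families and test nothing. In bulk tissue fewer cells of a type and less RNA per cell cannot be told apart, and as nothing ties each library to a named embryo, the p-values measure the spread between these libraries.

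Differences were small for most members, with 22 of 31 under 0.2 in size on the log2 scale. The median log2 fold change was 0.05 over the 20 semaphorins and -0.01 over the 11 plexins and neuropilins, beside 0.00073 over all genes tested. The receptor median turned to 0.04 without KO-labelled replicate 2, and the semaphorin median was 0.05 without it. With library size alone as the scaling the semaphorin median was 0.0073, beside -0.04 over all genes tested. Without WT-labelled replicate 4 it was 0.00079, beside 0.0038. Of the 31 members, 16 were above 0 and 15 below it, while 50.3% of all genes tested were above 0. In 2 members, *Sema6c* and *Plxna1*, every KO-labelled library lay above every WT-labelled library. That is 6.45% of the members, beside 1.48% of all genes tested whose groups did not overlap in one direction or the other. With library size alone as the scaling both members overlapped between groups. The 1 member without overlap there was *Sema4d*, lower in KO-labelled libraries.

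**Figure D2:**
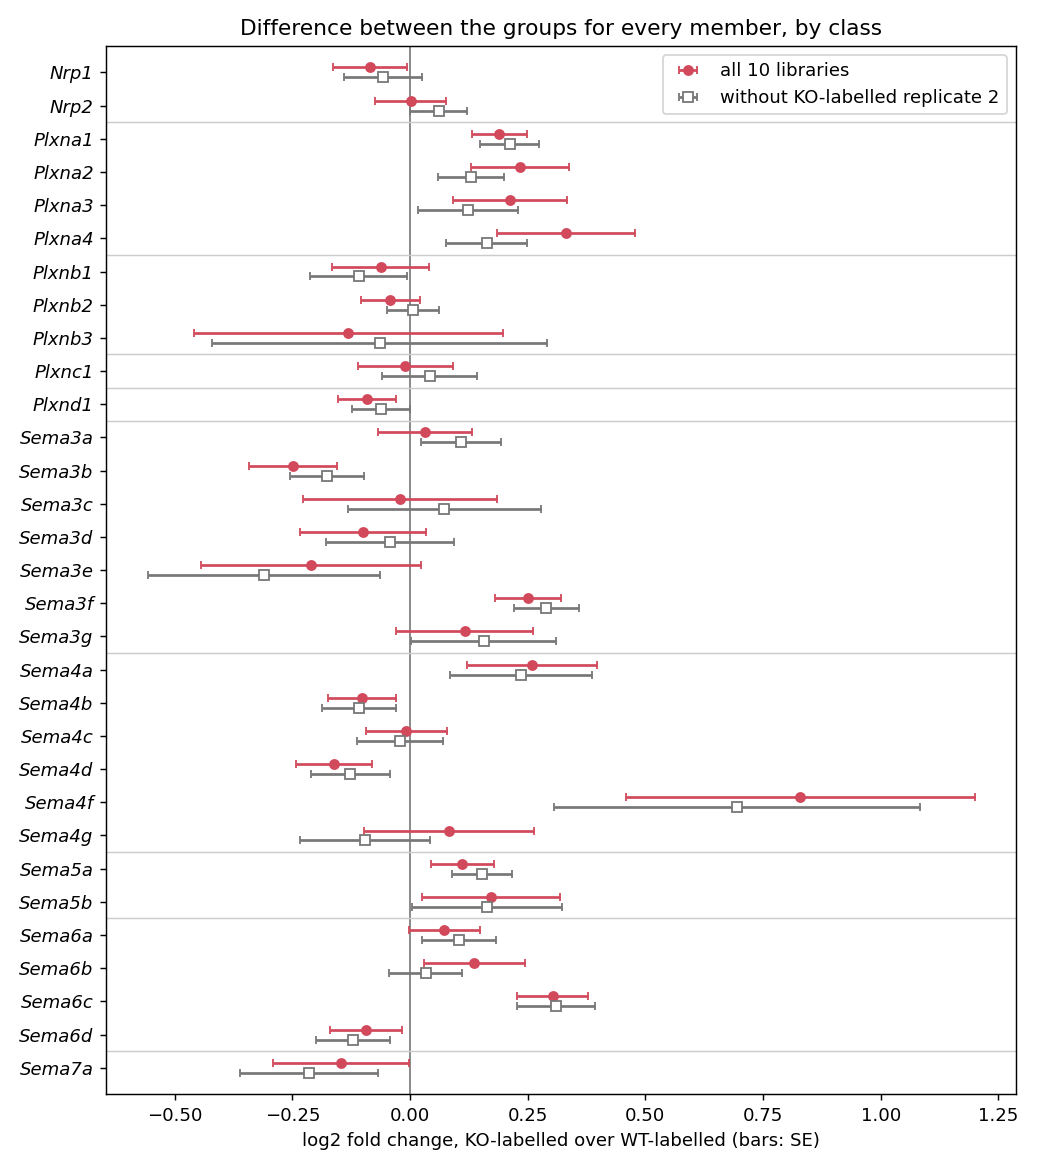
Log2 fold change of every member, KO-labelled over WT-labelled, by class, from all 10 libraries (circles) and without KO-labelled replicate 2 (squares). Bars are SE. All 4 A-type plexins lie to the right of 0 in both fits, and *Sema4f* has the largest value and the widest bar.

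*Sema6c*, a transmembrane class 6 semaphorin, had the smallest unadjusted p of the 31 members. The gene lies on chromosome 3 at chr3:95160457-95174024 (GRCm38, plus strand). RefSeq gives it 2 starts in GRCm38.p6, and the 250 bases before each are shown because this member had that smallest p. Capitals mark matches to the GC box GGGCGG, on either strand, a motif bound by Sp-family factors. The windows lie on the plus strand at chr3:95160170-95160419 and chr3:95164089-95164338.
Sema6c, first start: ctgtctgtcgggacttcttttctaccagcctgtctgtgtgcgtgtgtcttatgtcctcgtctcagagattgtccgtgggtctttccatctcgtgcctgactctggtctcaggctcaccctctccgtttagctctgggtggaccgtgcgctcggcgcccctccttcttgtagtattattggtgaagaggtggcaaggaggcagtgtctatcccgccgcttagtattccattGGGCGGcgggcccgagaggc
Sema6c, second start: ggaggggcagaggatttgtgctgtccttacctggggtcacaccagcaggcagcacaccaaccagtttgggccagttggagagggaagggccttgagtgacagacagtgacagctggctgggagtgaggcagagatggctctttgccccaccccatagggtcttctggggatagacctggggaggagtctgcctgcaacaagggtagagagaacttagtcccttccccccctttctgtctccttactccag
The first window held 1 GC box, beginning 20 bases before the start, and 15 CpG dinucleotides, and the second window held neither. Counts over the whole gene do not say which start was used.

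*Sema6c* measured 37.1, 40.7, 38.2, 30.8 and 31.6 CPM in WT-labelled replicates 1 to 5 and 43.7, 43.9, 45.5, 44.3 and 42.7 CPM in KO-labelled replicates 1 to 5. On these values, all 5 KO-labelled libraries lay above all 5 WT-labelled ones, and they lay closer together. The log2 fold change was 0.30 ± 0.08 (SE, adjusted p = 0.336, edgeR), and a two-sided exact permutation test gave p = 0.00794, the smallest p that 5 against 5 libraries allow. Without KO-labelled replicate 2 the log2 fold change was 0.31 and the groups still did not overlap. With library size alone as the scaling it was 0.27 and the groups overlapped. There KO-labelled replicate 5, with 967 of 25175352 counts, lay below WT-labelled replicate 2, with 1186 of 28515434. The other class 6 members did not reach an unadjusted p of 0.05. *Sema6a* stood at 0.07, *Sema6b* at 0.14 and *Sema6d* at -0.09 on the log2 fold change scale. *Sema6b* was 0.03 without KO-labelled replicate 2, which held 16.3 CPM beside 10.4 to 12.5 CPM in the other KO-labelled libraries.

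Among the secreted class 3 ligands, *Sema3f* was higher and *Sema3b* lower in KO-labelled libraries. Both encoded proteins bind neuropilins. The 2 genes lie near each other on the minus strand of chromosome 9, *Sema3b* at chr9:107597674-107609229 and *Sema3f* at chr9:107681500-107710475 (GRCm38), 72270 bases apart, with other genes between them. *Sema3f* measured 31.8, 34.0, 31.1, 27.3 and 29.9 CPM in WT-labelled libraries and 36.1, 33.4, 41.1, 37.2 and 35.8 CPM in KO-labelled libraries. Only KO-labelled replicate 2 fell within the WT-labelled range. The log2 fold change was 0.25 ± 0.07 (SE, adjusted p = 0.411, edgeR), with an exact permutation p of 0.0159, two-sided, and it was 0.29 without KO-labelled replicate 2.

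*Sema3b* measured 43.8, 44.4, 37.0, 41.1 and 35.4 CPM in WT-labelled libraries and 35.8, 27.5, 35.1, 33.0 and 38.5 CPM in KO-labelled libraries. The groups overlapped, and KO-labelled replicate 2 was the lowest of the 10. The log2 fold change was -0.25 ± 0.09 (SE, adjusted p = 0.624, edgeR), with an exact permutation p of 0.0476, two-sided. Without that replicate the value was -0.18. As the 2 genes differed in opposite directions, their ratio was taken within each library, a measure chosen after the values were seen and given with no test. The ratio of *Sema3f* to *Sema3b* CPM was 0.726, 0.766, 0.84, 0.665 and 0.845 in WT-labelled libraries and 1.01, 1.21, 1.17, 1.13 and 0.929 in KO-labelled libraries. This ratio does not depend on the scaling between libraries, and it did not overlap between groups.

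*Sema3a*, at chr5:13125414-13602565, measured 57.4, 51.1, 48.6, 50.4 and 63.2 CPM in WT-labelled and 52.0, 44.4, 62.3, 59.2 and 59.0 CPM in KO-labelled libraries. The groups overlapped over most of their range. The log2 fold change was 0.03 ± 0.10 (SE, adjusted p = 0.962, edgeR), and its direction turned with library size as the scaling. The other class 3 ligands did not reach an unadjusted p of 0.05, and ranged from -0.21 for *Sema3e* to 0.12 for *Sema3g*. Leaving out KO-labelled replicate 2, *Sema3c* turned from -0.02 to 0.07, *Sema3d* moved from -0.10 to -0.04 and *Sema3e* from -0.21 to -0.31. Without KO-labelled replicate 2 *Sema3a* stood at 0.11. *Sema3c* averaged 65.5 ± 8.52 CPM (SD, n = 5) in WT-labelled libraries, and KO-labelled replicate 1 stood alone at 110 CPM while the other KO-labelled libraries lay between 48.1 and 57.8 CPM. The *Sema3c* value rests on that library. Without it the log2 fold change was -0.29, with an unadjusted p under 0.05 (adjusted p = 0.575, edgeR). Skeletal muscle markers were also high in that library, at 983 CPM, and in WT-labelled replicate 2, at 939 CPM, where *Sema3c* was 62.6 CPM. Of the 17 neuron markers, 11 lay within the WT-labelled range in KO-labelled replicate 1 and 6 above it, and 3 had their highest value of the 10 libraries there. Among the genes that stood apart there, *Nefl* was at 54.9 CPM beside 3.02 to 7.67 CPM in the other 9 libraries, and the Schwann cell marker *Ngfr* was at 24.6 CPM beside 6.05 to 12.2 CPM. The part of muscle or nerve in the *Sema3c* value was not tested.

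Class 4 semaphorins span the membrane and signal mainly through B-type plexins. *Sema4d*, at chr13:51685529-51793747, measured 74.5, 75.6, 85.8, 89.1 and 84.4 CPM in WT-labelled and 76.0, 67.4, 76.9, 63.1 and 82.8 CPM in KO-labelled libraries. The groups overlapped, with 2 KO-labelled libraries below every WT-labelled one. The log2 fold change was -0.16 ± 0.08 (SE, adjusted p = 0.669, edgeR) and -0.13 without KO-labelled replicate 2. With library size alone as the scaling it was -0.21 (adjusted p = 0.629, edgeR). On that scaling every KO-labelled library lay below every WT-labelled one. Osteoclast markers, 10 genes for the cells known as a main source of Sema4d, summed to 2484 to 3933 CPM in WT-labelled and 2755 to 3111 CPM in KO-labelled libraries, with 2 of the 10 lower at an unadjusted p under 0.05 and 1 without KO-labelled replicate 2. Of the 10, 9 had a log2 fold change below 0, and their part in the *Sema4d* values was not tested. *Sema4f*, at chr6:82911885-82939769, rested on few reads, 20 to 95 counts per library. It measured 1.37, 1.89, 1.53, 0.817 and 1.35 CPM in WT-labelled and 4.41, 3.38, 0.984, 1.75 and 1.9 CPM in KO-labelled libraries. KO-labelled replicates 1 and 2 were high and the other 3 lay within the WT-labelled range or at its edge. Between the groups the log2 fold change was 0.83 ± 0.37 (SE, adjusted p = 0.659, edgeR), and the exact permutation test gave p = 0.159, two-sided. The fold change was 0.53 without KO-labelled replicate 1 and 0.69 without KO-labelled replicate 2, and neither fit reached an unadjusted p of 0.05. *Sema4a* at 0.26, *Sema4b* at -0.10, *Sema4c* at -0.01 and *Sema4g* at 0.08 on the log2 fold change scale did not reach an unadjusted p of 0.05. *Sema4g* was highest in KO-labelled replicate 2 and turned to -0.10 without it.

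Class 5 semaphorins carry thrombospondin repeats outside the membrane, and *Sema7a* is held to the membrane by a lipid anchor. *Sema5a*, at chr15:32244810-32696341, measured 114, 115, 115, 104 and 107 CPM in WT-labelled and 129, 108, 126, 108 and 128 CPM in KO-labelled libraries. KO-labelled replicates 1, 3 and 5 lay above the WT-labelled range and replicates 2 and 4 within it. On the log2 scale the difference was 0.11 ± 0.07 (SE, adjusted p = 0.726, edgeR). Without KO-labelled replicate 2 it was 0.15, with an unadjusted p of 0.0363 (adjusted p = 0.684, edgeR). *Sema5b* stood at 0.17 and *Sema7a* at -0.15 on the same scale, both with an unadjusted p above 0.05. Without KO-labelled replicate 2 they stood at 0.16 and -0.21. Without WT-labelled replicate 1 *Sema7a* was -0.25, with an unadjusted p of 0.0474 (adjusted p = 0.674, edgeR).

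The 4 A-type plexins, the signalling subunits for class 3 ligands and direct receptors for class 6 ligands, all had log2 fold changes above 0. *Plxna1*, at chr6:89316314-89362620 on the minus strand, measured 144, 150, 145, 130 and 128 CPM in WT-labelled and 165, 152, 162, 151 and 165 CPM in KO-labelled libraries. Every KO-labelled library lay above every WT-labelled one, though the nearest values, 150 and 151, almost met. Between the groups the log2 fold change was 0.19 ± 0.06 (SE, adjusted p = 0.479, edgeR), and the exact permutation p was 0.00794, two-sided and again the smallest possible. The log2 fold change was 0.21 without KO-labelled replicate 2. With library size alone as the scaling it was 0.15 and the groups overlapped. There KO-labelled replicate 3, with 3778 of 25748619 counts, lay below WT-labelled replicate 2, with 4371 of 28515434. The exons of *Plxna1* share 10.7% of their bases with the opposite-strand gene Gm26811, and the strand setting of the counting is not given in the sources used here.

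*Plxna2*, at chr1:194618218-194816869, measured 56.4, 61.6, 58.4, 51.9 and 59.1 CPM in WT-labelled and 65.9, 87.2, 66.9, 55.1 and 62.9 CPM in KO-labelled libraries. *Plxna4*, at chr6:32144268-32588192, measured 40.9, 45.4, 52.1, 41.2 and 40.7 CPM in WT-labelled and 49.6, 80.5, 52.4, 43.5 and 51.0 CPM in KO-labelled libraries. In both, KO-labelled replicate 2 was far above the rest and the groups overlapped. The log2 fold change of *Plxna2* was 0.23 ± 0.10 (SE, adjusted p = 0.659, edgeR) and 0.13 without that library. That of *Plxna4* was 0.33 ± 0.15 (SE, adjusted p = 0.659, edgeR) and 0.16. Neither reached an unadjusted p of 0.05 without it. *Plxna3*, at a log2 fold change of 0.21, was also highest in that library, at 38.8 CPM beside 27.6 to 30.4 CPM in the other KO-labelled libraries, and it was 0.12 without it. The neuron markers were high in the same library, and their part in the values of these 3 plexins was not tested.

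**Figure D3:**
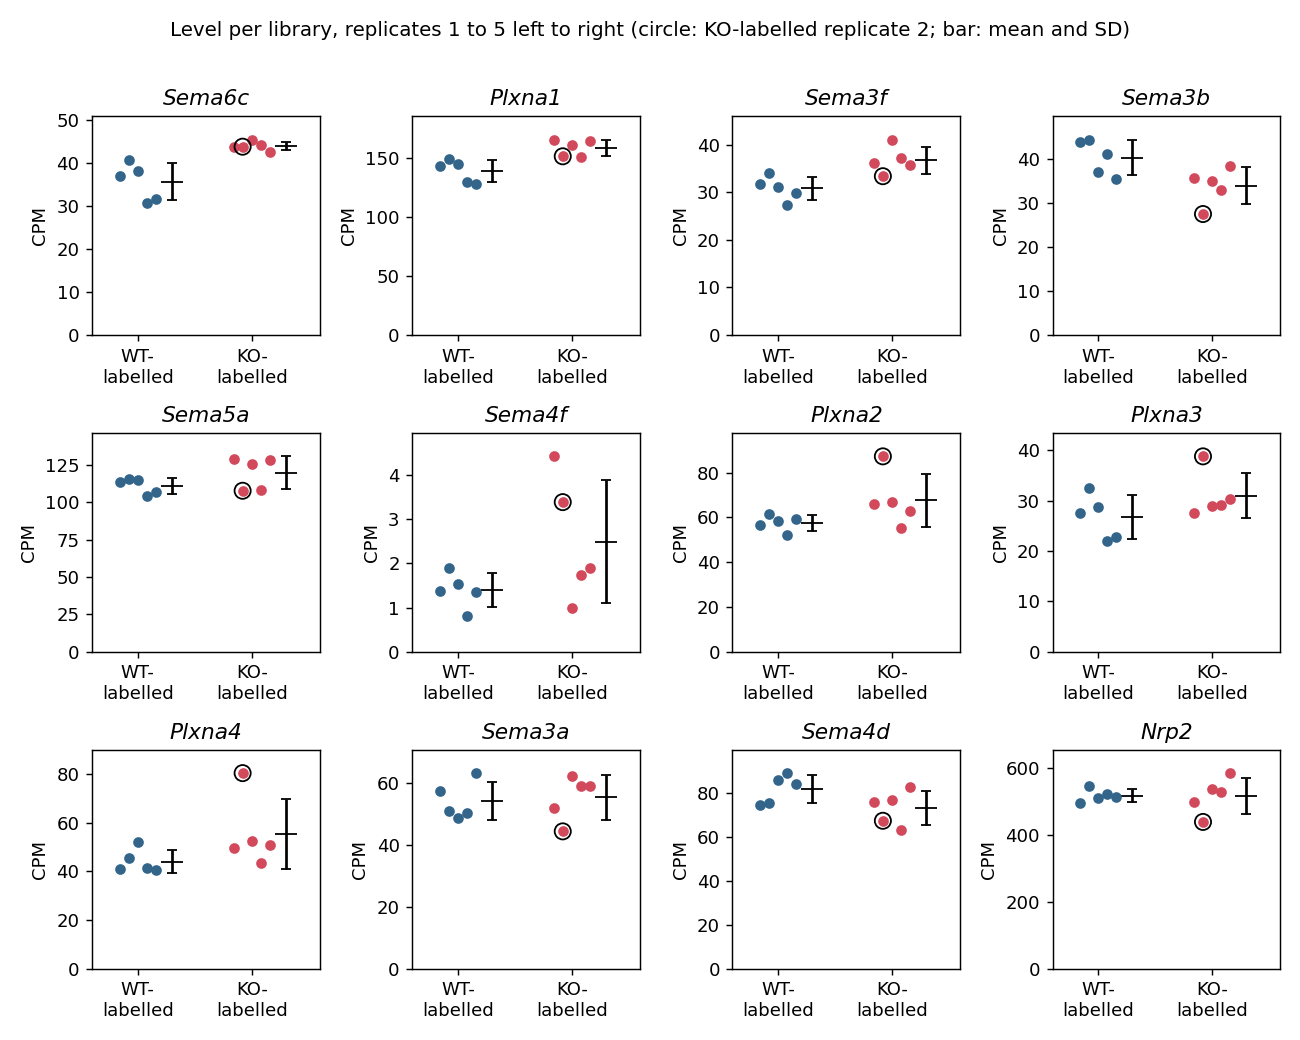
CPM in each library for 12 members, with WT-labelled libraries in blue and KO-labelled in red, replicates 1 to 5 from left to right, each axis from 0, and the bar giving the mean and SD. The circle marks KO-labelled replicate 2. *Sema6c* and *Plxna1* show no overlap, while *Plxna2*, *Plxna3* and *Plxna4* have their highest value in the circled library.

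The sequence before the RefSeq starts of *Plxna2* and *Plxna3* (GRCm38.p6, plus strand) is shown for 2 of the A-type plexins that were highest in the same library, with GC boxes in capitals. The windows are chr1:194619579-194619828 and chrX:74328816-74329065.
Plxna2: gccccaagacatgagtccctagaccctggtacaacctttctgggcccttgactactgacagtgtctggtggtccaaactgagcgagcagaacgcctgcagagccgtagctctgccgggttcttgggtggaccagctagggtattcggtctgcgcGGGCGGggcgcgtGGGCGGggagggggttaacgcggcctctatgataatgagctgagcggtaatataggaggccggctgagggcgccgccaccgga
Plxna3: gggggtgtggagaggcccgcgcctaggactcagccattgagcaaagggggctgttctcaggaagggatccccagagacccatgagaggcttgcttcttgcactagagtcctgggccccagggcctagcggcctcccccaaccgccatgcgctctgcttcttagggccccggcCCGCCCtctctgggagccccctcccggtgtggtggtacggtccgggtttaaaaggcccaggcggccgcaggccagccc
*Plxna2* held 2 GC boxes, beginning 96 and 83 bases before the start, and *Plxna3* held 1, beginning at 78 bases. Over the 37 RefSeq promoters of 26 members, 27 held a GC box, beside 32.7% of 32851 mouse promoter windows of the same length. None held the TATA box TATAAA, which 12.4% of all windows held, 2 held the TCF/LEF core CTTTGA, beside 13.8%, and 1 held the ETS core CCGGAAG, beside 6.9%. Both strands were searched, several windows belong to the same gene, and a match is a description of the letters only.

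The other receptors differed little between the groups. *Plxnb1*, the receptor for Sema4d, measured 32.0, 30.6, 39.6, 31.3 and 28.7 CPM in WT-labelled and 26.7, 35.4, 34.0, 27.2 and 31.9 CPM in KO-labelled libraries, with a log2 fold change of -0.06 ± 0.10 (SE, adjusted p = 0.925, edgeR). *Nrp1* measured 66.4, 62.7, 61.1, 71.6 and 66.1 CPM in WT-labelled and 62.6, 58.2, 72.8, 62.2 and 53.5 CPM in KO-labelled libraries, with a log2 fold change of -0.08 ± 0.08 (SE, adjusted p = 0.841, edgeR). *Nrp2* measured 493, 544, 510, 522 and 511 CPM in WT-labelled and 497, 438, 537, 528 and 583 CPM in KO-labelled libraries. All 3 overlapped between the groups, and *Nrp2* spread more widely among KO-labelled libraries, with replicate 2 the lowest and replicate 5 the highest. Its log2 fold change was 0.0015 ± 0.08 (SE, adjusted p = 0.998, edgeR), with a sign that turned with library size as the scaling. Without KO-labelled replicate 2 these values were -0.11 for *Plxnb1*, -0.06 for *Nrp1* and 0.06 for *Nrp2*. *Plxnb2* at -0.04, *Plxnb3* at -0.13, *Plxnc1* at -0.01 and *Plxnd1* at -0.09 on the log2 fold change scale did not reach an unadjusted p of 0.05. When KO-labelled replicate 2 was left out, *Plxnb2* turned to 0.0061 and *Plxnc1* to 0.04, *Plxnb3* was -0.06 and *Plxnd1* was -0.06.

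KO-labelled replicate 2 was the highest of the 5 KO-labelled libraries in 8 members and the lowest in 11. These are 61.3% of the members, beside 49.1% of all genes tested. It was the highest in 3 of the 4 A-type plexins and the lowest in 5 of the 7 class 3 semaphorins. The share of all genes is not given for each end alone, so these class counts stand without one. Without it, 4 members were higher at an unadjusted p under 0.05, *Sema6c*, *Sema3f*, *Plxna1* and *Sema5a*, which is 12.9% beside 3.69% of all genes tested in that comparison. *Sema3b* was lower, which is 3.23% beside 3.11%.

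**Figure D4:**
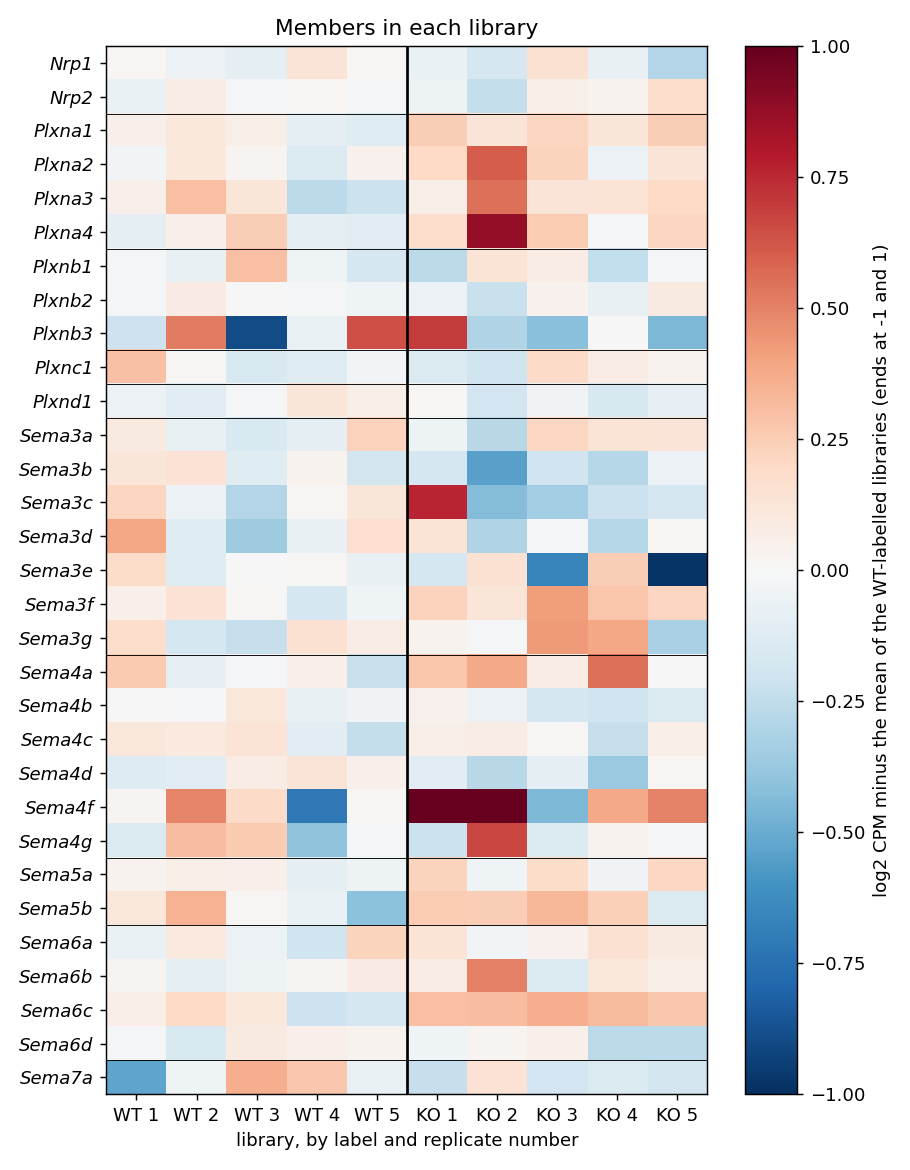
Log2 CPM of each member in each library minus the mean of the WT-labelled libraries, with colours ending 1 log2 unit above and below that mean. Rows are grouped by class and columns by label and replicate number. KO 2 is red in *Plxna2*, *Plxna3* and *Plxna4*, and KO 1 is red in *Sema3c*.

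Genes that work with these ligands and receptors were taken from 2 lists. Of 12 co-receptors and other surface partners, none reached an unadjusted p of 0.05. Of 36 cytoplasmic partners, 3 were higher and 2 lower at that threshold, and none had an adjusted p under 0.05 by edgeR. The 5 are 10.4% of the 48 partner genes tested, beside 7.49% of all genes in either direction, and are given as values only. Without KO-labelled replicate 2 the 5 became 3 over both lists, 1 of them a surface partner. In that fit 3.69% of all genes were higher and 3.11% lower. Without WT-labelled replicate 4 there was 1, where 2.34% of all genes were higher and 2.85% lower. *Sh3bp1*, a GTPase-activating protein, averaged 39.1 ± 1.19 CPM in WT-labelled and 34.4 ± 3.08 CPM in KO-labelled libraries (SD, n = 5), with a log2 fold change of -0.18. *Fyn*, a kinase downstream of Sema3a receptors, averaged 73.9 ± 2.44 and 67.1 ± 4.4 CPM (SD, n = 5), with a log2 fold change of -0.14. The 3 higher genes were *Gsk3b*, a kinase, at 0.17, *Farp1*, a guanine nucleotide exchange factor, at 0.13, and *Dpysl4*, a collapsin response mediator, at 0.54. *Dpysl4* was highest in KO-labelled replicate 2, at 10.8 CPM, and without it stood at 0.37.

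Marker lists of the cells in the tissue were counted in the same way, with no test of a list. Of the 17 neuron markers, 16 had a log2 fold change above 0 and 5 were higher at an unadjusted p under 0.05. That count was 2 without KO-labelled replicate 2. All 11 osteoblast markers had a log2 fold change below 0, and 7 were lower in KO-labelled libraries at an unadjusted p under 0.05. *Col1a1* made up 87.9% to 92.3% of their summed CPM, and the other 10 summed to 7488 to 9369 CPM in WT-labelled and 5621 to 7287 CPM in KO-labelled libraries. Of 7 tendon-like markers, 5 had a log2 fold change above 0 and 4 were higher at an unadjusted p under 0.05. Their sums were 398 to 460 CPM in WT-labelled and 468 to 639 CPM in KO-labelled libraries. Endothelial markers, for cells known to carry Plxnd1 and Nrp1, summed to 530.0 to 661 CPM and 558 to 683 CPM. Epidermis markers summed to 16.8 CPM at most. Lymphoid markers summed to 3.02 to 4.78 CPM and 5.56 to 9.45 CPM. Of the 8 in the list, *Cd3e* and *Cd3g* were not among the genes listed, and *Ms4a1* and *Cd2* were at 0 in some library. Only 4 had enough counts to be tested. These 4 were all higher at an unadjusted p under 0.05, with and without KO-labelled replicate 2, beside 3.68% and 3.69% of all genes. The part of these cell types in the differences among members was not tested.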

How the data were processed

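The members and gene lists were chosen with earlier results of these data known. The authors sequenced stranded libraries as single reads of 50 bases, processed them with Partek on mm10 per the labels, and deposited estimated counts per gene. The aligner, counter and strand setting are not given in the sources used here. Of the deposited estimated counts, 66.4% were exactly whole as written (tolerance 0), and the lowest sum of any gene over 10 libraries was 10. Counts were rounded, and filterByExpr of edgeR 4.0.16 kept 16267 genes and removed 6813. After TMM scaling, the quasi-likelihood test was fitted without covariates. R was version 4.3.3, DESeq2 1.42.0 and limma 3.58.1. P-values were adjusted by Benjamini-Hochberg over all genes, with a threshold of 0.05. Permutation tests used log2 CPM with a prior count of 0.5 and all 252 groupings. The edgeR fit was tested on simulated data.

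Members named with every library's value are those at an unadjusted p under 0.05 with or without KO-labelled replicate 2, those without overlap, and *Sema3a*, *Sema4d*, *Plxnb1*, *Nrp1* and *Nrp2*, and partner genes those at an unadjusted p under 0.05. Exon lengths are from GENCODE M21, where 22296 of 22533 symbols had the deposited position. No stretch of 50 bases was shared between members. The alternatives were other size factors, library size alone, DESeq2, limma voom with quality weights, other filters, the replicate number as a block, ribosomal RNA genes left out, other thresholds and leaving out each library. *Plxna3* and the ratio of *Sema3f* to *Sema3b* were added after their values were seen.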

Additional observations from a re-analysis of the deposited data

Results flagged for a closer look

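Of 62 groups of 5 values, 8 held a library set apart from the other 4 by a gap over 0.71 of the group's range, where chance gives about 5% of groups. KO-labelled replicate 2 was high in *Plxna3* at 38.8 CPM, *Plxna4* at 80.5 CPM, *Sema4g* at 22.2 CPM and *Sema7a* at 42.7 CPM. KO-labelled replicate 1 was high in *Sema3c* at 110 CPM. KO-labelled replicate 4 was low in *Sema4c* at 28.0 CPM, and KO-labelled replicate 5 was low in *Sema5b* at 4.06 CPM. WT-labelled replicate 2 was high in *Plxnb2* at 319 CPM, beside 294 to 301 CPM in the other WT-labelled libraries.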

How the results depend on the processing

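No member had an adjusted p under 0.05 under any edgeR or limma setting run, and 1 did by DESeq2, *Sema6c* (log2 fold change 0.31). Over all genes, edgeR called 3 and DESeq2 98. *Sema6c* stayed above 0 in every setting, with adjusted p from 0.0427 to 0.677. The count of members higher was 2 with library size only, 3 at an unadjusted threshold of 0.01 and 3 to 7 leaving out 1 library each (3 without WT-labelled replicate 4 or 5), while the share of all genes called higher was 1.59%, 0.971% and 2.34% to 4.89% in these settings. The count lower was 2 with library size only, 0 at 0.01, 0 with the replicate block and 0 to 2 leaving out 1 library each (0 without WT-labelled replicate 2, and 2 without WT-labelled replicate 1 or KO-labelled replicate 1 or 5), beside 4.36%, 0.916%, 3.14% and 2.63% to 4.13% of all genes. The semaphorin median was 0.0073 with library size only and 0.00079 (without WT-labelled replicate 4) to 0.086 leaving out 1 library each. The plexin and neuropilin median was above 0 by limma voom (0.01), without WT-labelled replicate 2, 3 or 5 and without KO-labelled replicate 1 or 2, from -0.04 to 0.04 leaving out 1 library each. Members without overlap numbered 1 with library size only, *Sema4d*, lower in KO-labelled libraries, while *Sema6c* and *Plxna1* overlapped. The share of all genes without overlap is not given for that scaling. Partner genes numbered 3 with library size only, beside 1.59% of all genes higher and 4.36% lower. They numbered 1 to 7 leaving out 1 library each (1 without WT-labelled replicate 4, 3 without WT-labelled replicate 5 or KO-labelled replicate 2). Of all genes, 855 of 16476 (without WT-labelled replicate 4) to 1370 of 16426 (without WT-labelled replicate 2) were called in these fits. *Fgfr2* was 0.63 (adjusted p = 0.152) with library size only, 0.67 (0.0557) with no filter, 0.68 (0.427) with the replicate block and 0.63 to 0.75 leaving out 1 library each. *Nrp2* was -0.043 with library size only, -0.00025 with no filter, -0.0040 with the replicate block and -0.046 to 0.061 leaving out 1 library each. *Sema3a* was -0.016 with library size only and -0.0049 (without KO-labelled replicate 3) to 0.109 leaving out 1 library each, and *Plxnb1* -0.109 to 0.029 (without WT-labelled replicate 3). The cause was not tested. The labels do not say which libraries are littermates, so the numbers were not taken to pair the libraries. Same-numbered libraries correlated at -0.211 to 0.139 in their deviations from the group means, which cannot show whether they share a litter. The replicate block left 1 gene called over all genes. *Plxnb3* had 13 to 43 counts per library, and *Sema4f* 20 to 95.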
